A study of Mus musculus with 6 samples.

Results

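The insulin-like growth factor 1 (IGF1) axis was followed in pMEFs, primary cultures of connective-tissue cells from mouse embryos, with and without an intact *Hat1* gene. The 10 genes were chosen by name, as the ligand *Igf1*, its receptor *Igf1r*, the binding proteins *Igfbp2* to *Igfbp7* and the receptor substrates *Irs1* and *Irs2*. Earlier results of these data were known when the genes were chosen. Each symbol matched 1 row of the deposited table of 17512 genes, and all 10 genes passed the filter on low counts that left 14773 genes for testing. HAT1 acetylates histone H4 soon after its synthesis. RNA came from 3 lines labelled HAT1 WT (36, 47 and 78) and 3 labelled HAT1 KO (33, 41 and 72), all on the C57bl6 background and without any treatment. The cells came from embryos whose internal organs had been removed, and were kept in serum-containing medium. The labels do not say from which embryos or litters the lines came, so a p-value here measures the spread between these lines.

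IGF1 is a secreted peptide that binds a receptor tyrosine kinase, IGF1R, on many cells of mesenchymal origin. The activated receptor phosphorylates IRS1 and IRS2, docking proteins that pass the signal to PI3 kinase and AKT, while other adaptors feed the RAS and MAP kinase route. In the extracellular fluid most IGF is held by binding proteins, which limit or prolong its access to the receptor and are opened by proteases. Fibroblasts and macrophages are both well known as local sources of IGF1.

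Libraries held between 67720628 and 98786746 counts. KO line 72 stood apart from the rest, with a mean Pearson correlation of 0.958 to the other lines on log2 CPM across tested genes, against 0.974 to 0.979 for the others. Fold changes and level orders that rest on it are therefore given with and without it. The targeted gene, *Hat1*, had 17.4 to 23.0 CPM in the WT lines and 10.0 to 10.3 CPM in the KO lines, so that reads assigned to it were still present in each KO library. High Y-linked counts (12841 and 13788) were found in WT lines 47 and 36 and at most 231 in any other line, so genotype and Y-linked level were not balanced. The lists of marker genes that follow were also chosen with earlier results of these data known. All 10 fibroblast markers were tested, and their summed level lay at 71176 to 76577 CPM in WT and 57738.5 to 89814 CPM in KO. *Col1a1* was the largest part (25022 to 43872 CPM over the 6 lines). By gene, 6 were lower and 4 higher in KO. Only *Thy1* (80.7% of the WT mean) did not overlap between genotypes, beside 22% of all tested genes. All 15 macrophage markers were present too. Each was lower in every KO line than in any WT line, as were 12.4% of all tested genes. Summed, the markers lay at 5573 to 6264 CPM in WT and 2645 to 3433 CPM in KO. In edgeR 8 of the 15 had an adjusted p-value under 0.05, beside 0.528% of all tested genes called lower. The number of markers called was 0 with the lane in the model, 5 without KO line 72 and 0 without any 1 of the other 5 lines. All 15 remained lower in KO in each of these fits, and 13 to 15 had an unadjusted p-value under 0.05. In the main fit 8.77% of all tested genes were lower at that unadjusted level. The 15 also remained lower with the Y-linked level in the model, which sets the KO lines against WT line 78 alone. Endothelial markers were low in sum, at 12.7 to 14.1 CPM in WT and 9.66 to 15.2 CPM in KO, mostly from *Kdr* (6.58 to 10.2 CPM over the 6 lines). The defining markers *Pecam1* and *Cdh5*, singled out after their values were seen, were under 1 CPM in each line. Both were lower in each KO line than in any WT line (31.9% and 55.2% of the WT mean). Of the 5 endothelial markers tested, 3 were lower and 2 higher in KO. *Kdr* (89.4% of the WT mean), *Tek* (106%) and *Erg* (160%) overlapped between genotypes. Markers of smooth muscle and pericytes summed to 4502 to 5498 CPM in WT and 5838 to 7257 CPM in KO without overlap. In edgeR 6 of 7 were higher in KO, 4 of them at an unadjusted p-value under 0.05 and 0 at an adjusted one. Of all tested genes 5.88% were higher at that unadjusted level. For skeletal muscle none of the 4 markers had a row. The sum of 12 proliferation genes was 524 to 768 CPM in WT and 736 to 1050.0 CPM in KO, with overlap. All 12 were higher in KO, with a median log2 fold change of 0.69. In edgeR 8 of them had an unadjusted p-value under 0.05 (beside 5.88% of all tested genes higher) and 0 an adjusted one. For 3 of the 12 all KO lines lay above all WT lines, beside 9.59% of all tested genes. The part of these cell types in the values of the axis was not tested.

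Of the 10 genes of the axis, *Igf1* showed the clearest separation of the genotypes. Its mean level in HAT1 KO was 48.8% of that in HAT1 WT, with no KO line reaching the level of any WT line. *Irs2* was the only other member without overlap, higher in KO by a smaller margin. The receptor, *Irs1* and the 6 binding proteins overlapped between genotypes, and several binding proteins varied more from line to line than between genotypes. At a threshold of 0.05 on the adjusted p-value, the edgeR quasi-likelihood test called none of the 10, where 0.528% of tested genes were called lower and 0% higher in KO. These 78 calls fell to 2 with lane in the model and to 0 without WT line 36, WT line 47 or KO line 33. They fell to 4 without WT line 78 and to 6 without KO line 41, and were 73 without KO line 72. *Igf1* alone had an unadjusted p-value under 0.05 (1 of 10, beside 14.6% of all tested genes, 8.77% lower and 5.88% higher in KO). Unlike edgeR, DESeq2 called *Igf1*, and no other member, at the adjusted threshold, where it called 4.57% of genes lower and 1.57% higher. Voom with sample quality weights called no member, with 1.78% of genes lower and 0.0271% higher. The 2 members without overlap compare with 22% of all tested genes (12.4% lower and 9.59% higher in KO). The median log2 fold change was 0.06 over the members and 0.01 over all tested genes.

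**Figure D1:**
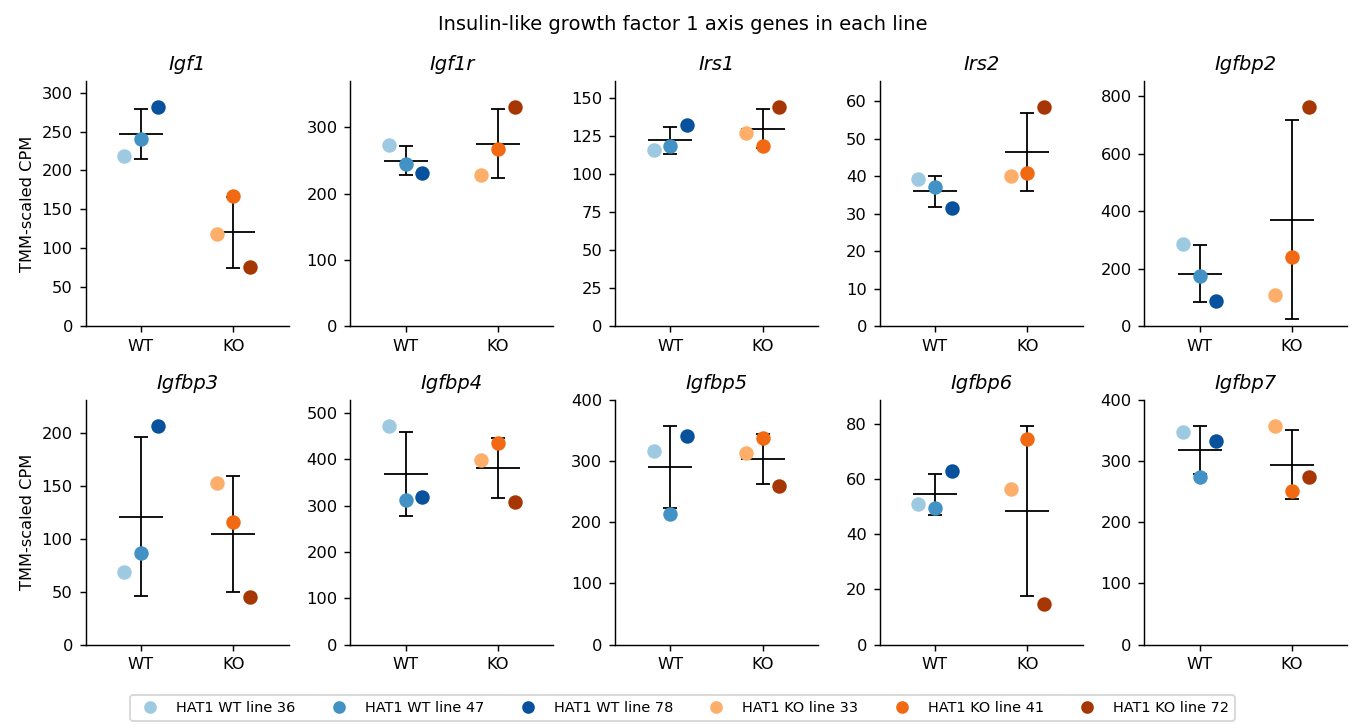
TMM-scaled CPM of the 10 genes in each line, with 1 point per line, a horizontal mark at the genotype mean and bars of 1 SD (n = 3 lines each). *Igf1* is lower in each KO line (76.3 to 167 CPM) than in any WT line (218 to 281 CPM), and KO line 72 lies far above the rest for *Igfbp2* and far below for *Igfbp6*.

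*Igf1* (ENSMUSG00000020053) lies on chromosome 10 from 87858265 to 87937042 of GRCm38, on the plus strand, and encodes the ligand. The windows around the RefSeq start sites of 3 members (GRCm38.p6, 250 bases before to 50 bases after the start, written 5′ to 3′ on the gene's strand) are shown for the members whose genotypes did not overlap, *Igf1* (chr10:87860861-87861160, plus) and *Irs2* (chr8:11008880-11009179, minus), and for the member that varied most, *Igfbp2* (chr1:72824230-72824529, plus, the more upstream of 2 starts). They were picked after the values were seen. The RefSeq starts differ from the GENCODE gene bounds given here. The *Igf1* window lies inside the gene, which begins at 87858265, and the *Irs2* window lies wholly outside the gene from 10984681 to 11008458. Capitals mark matches on either strand to the CCAAT box (its letters as named, with ATTGG as the reverse form), to the GC box (spelled GGGCGG, which reads CCGCCC on the other strand) and to the TATA box (spelled TATAAA, with TTTATA in reverse), and no match overlapped another.
Igf1: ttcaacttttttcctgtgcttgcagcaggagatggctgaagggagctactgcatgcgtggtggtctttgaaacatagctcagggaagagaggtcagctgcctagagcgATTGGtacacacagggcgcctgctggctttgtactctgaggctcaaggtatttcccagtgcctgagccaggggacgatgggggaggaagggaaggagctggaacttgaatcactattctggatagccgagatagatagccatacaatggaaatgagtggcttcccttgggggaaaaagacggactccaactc
Irs2: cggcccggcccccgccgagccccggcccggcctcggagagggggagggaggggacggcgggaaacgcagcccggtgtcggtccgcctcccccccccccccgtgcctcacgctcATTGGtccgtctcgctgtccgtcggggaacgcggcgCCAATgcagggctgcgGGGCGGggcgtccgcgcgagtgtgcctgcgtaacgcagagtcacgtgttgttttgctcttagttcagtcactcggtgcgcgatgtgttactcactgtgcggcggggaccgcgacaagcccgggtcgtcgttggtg
Igfbp2: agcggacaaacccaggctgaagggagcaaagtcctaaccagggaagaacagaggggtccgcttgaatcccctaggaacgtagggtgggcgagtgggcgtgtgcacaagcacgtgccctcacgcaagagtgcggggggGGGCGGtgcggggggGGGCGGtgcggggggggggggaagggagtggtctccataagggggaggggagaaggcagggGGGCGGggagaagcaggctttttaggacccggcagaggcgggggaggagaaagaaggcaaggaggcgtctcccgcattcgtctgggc

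All 10 members matched RefSeq windows by symbol, 11 windows in all because *Igfbp2* has 2. The *Igf1* window held 1 CCAAT match, no GGGCGG and 6 CpG pairs, fewer CpG pairs than 52.1% of the 32841 windows of that length. The *Irs2* window held 2 CCAAT matches, 1 GGGCGG match and 41 CpG pairs, and only 3.03% of windows held more. The *Igfbp2* window held 3 GGGCGG matches and 18 CpG pairs. CCAAT was found in 37.4% of all windows and in 3 of the 11, GGGCGG in 35.7% and in 5 of the 11, and TATAAA in 13.6% and in 2 of the 11 (*Igfbp4* and *Igfbp6*). The median number of CpG pairs was 27 over the 11 windows and 7 over all windows. These are letter matches and not sites of binding.

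WT lines 36, 47 and 78 carried 16471, 19399 and 27824 *Igf1* counts, which gave 218, 241 and 281 CPM. KO lines 33, 41 and 72 carried 10486, 11287 and 5886, which gave 118, 167 and 76.3 CPM. The WT lines were thus the 3 highest, and the lowest value belonged to KO line 72. Means were 247 ± 31.8 CPM in WT and 120.3 ± 45.4 CPM in KO (SD, n = 3 lines each), and the fit put the log2 difference at -1.04 (SE 0.28). The edgeR test gave an unadjusted p-value of 0.00912 and an adjusted p-value of 0.193, and the exact two-sided permutation test gave 0.1, the smallest that 3 lines against 3 allow. Without KO line 72 the log2 fold change was -0.78, with an adjusted p-value of 0.131 in edgeR. Within lane 6 (1 WT and 2 KO lines) the log2 difference was -1.35 and within lane 7 (1 line of each genotype) it was -0.75, while lane 8 held a WT line alone. A model with the lane as a term gave -1.08 (adjusted p = 0.659 in edgeR). A model with the Y-linked level gave -1.22. That model sets the KO lines against WT line 78 alone, the only WT line with low Y-linked counts.

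Like *Igf1*, the macrophage markers were lower in the KO lines. Within WT the order of the sum differed, with *Igf1* highest in line 78 (281 CPM), where the summed markers were lowest (5573 CPM). By gene the order was mixed. *Ptprc*, *Adgre1*, *Itgam* and *Aif1* rose over WT lines 36, 47 and 78 as *Igf1* did. *Cd53*, *Csf1r*, *Cd68*, *Mrc1*, *Tyrobp*, *Fcer1g*, *C1qa*, *C1qb* and *C1qc* were lowest in WT line 78. *Lyz2* and *Fcgr1* were highest in WT line 47. In percent of the WT mean, *Igf1* stood at 47.7%, 67.6% and 30.9% in KO lines 33, 41 and 72, while the 15 markers ranged from 46.0% to 78.6%, from 45.8% to 66.2% and from 20.9% to 59.8% in the same lines. Taken per 100 CPM of the summed markers, *Igf1* was at 3.70, 3.85 and 5.05 CPM in WT lines 36, 47 and 78 and at 3.68, 4.86 and 2.88 CPM in KO lines 33, 41 and 72. On that scale the genotypes overlapped, and only KO line 72 lay clearly under the WT range. The sum rests largely on 1 marker, *Lyz2*, at 2812 of 5904 CPM in WT line 36 and 1483 of 3197 CPM in KO line 33. The part of the macrophage transcripts in the *Igf1* difference was not tested. In RNA from a whole culture, fewer cells of a type and less RNA per cell cannot be told apart.

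**Figure D2:**
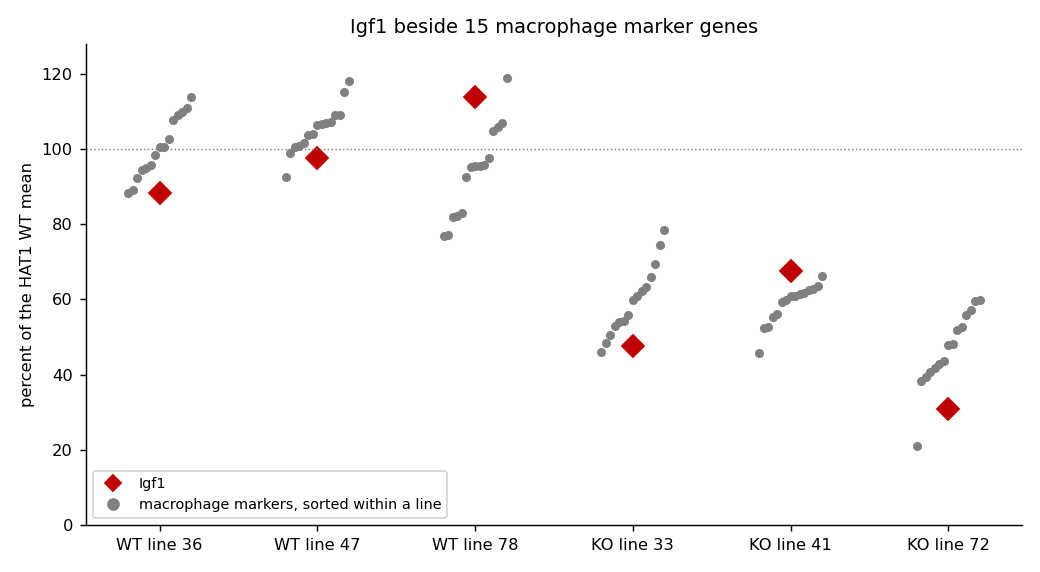
Level of *Igf1* (diamonds) and of 15 macrophage marker genes (grey points, sorted within a line) in percent of each gene's HAT1 WT mean, by line, with a dotted line at 100%. *Igf1* lies at 30.9% to 67.6% in the KO lines, and each of the 15 markers is lower in every KO line than in any WT line.

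The genes whose profile over the 6 lines was most like that of *Igf1* were sought among 8893 tested genes with a mean of at least 10 CPM, by the root-mean-square difference of centred log2 CPM. The closest 5 were *Abca1* (0.09), a cholesterol export pump, *Tnc* (0.13), the matrix glycoprotein tenascin C, *Rab7b* (0.15), *Gramd1b* (0.17) and *Ms4a7* (0.17). *Abca1* was at 572 to 628 CPM in the WT lines and at 291, 393 and 165 CPM in KO lines 33, 41 and 72, so it kept the same order of KO lines as *Igf1*. This likeness is a description over 6 lines that share their libraries and carries no test.

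Downstream of the ligand, the receptor transcript did not follow it. *Igf1r* (chromosome 7 from 67952827 to 68233668, plus strand) encodes the tyrosine kinase that binds IGF1 and IGF2. It stood at 273, 245 and 231 CPM in WT lines 36, 47 and 78 and at 227, 268 and 330.2 CPM in KO lines 33, 41 and 72. The lowest and the highest value were both in KO lines, and the genotypes overlapped. Means were 249.8 ± 21.3 and 275 ± 51.8 CPM (SD, n = 3 lines each), with a log2 fold change of 0.14 (SE 0.15) and an adjusted p-value of 0.714 in edgeR. The log2 fold change was -0.0015 without KO line 72.

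The substrates of the receptor differed in how they were placed. *Irs1* (chromosome 1 from 82233101 to 82291416, minus strand) was at 116, 119 and 132 CPM in the WT lines and 127, 118 and 144 CPM in the KO lines. It was the steadiest member, with a highest value 1.24 times the lowest, beside a median of 1.30 over the 8903 tested genes with at least 10 CPM. Its log2 fold change was 0.09 (SE 0.10, adjusted p = 0.725 in edgeR). An annotated gene on the other strand, *Gm9747*, covers 30.9% of the exon bases of *Irs1*, and the use of strand in counting was not given, so its count is uncertain to that extent.

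*Irs2* (chromosome 8 from 10984681 to 11008458, minus strand) was at 39.3, 37.2 and 31.4 CPM in WT lines 36, 47 and 78. In KO lines 33, 41 and 72 it was at 40.0, 40.8 and 58.4 CPM. The KO lines lay above the WT lines, but KO line 33 exceeded WT line 36 by little, and KO line 72 was well above the other two. Means were 35.96 ± 4.08 and 46.4 ± 10.4 CPM (SD, n = 3 lines each), which edgeR put at a log2 fold change of 0.37 (SE 0.17, adjusted p = 0.394). The exact permutation p-value was 0.1. Within lanes 6 and 7 the log2 difference was 0.38 in both, and without KO line 72 the log2 fold change was 0.18.

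**Figure D3:**
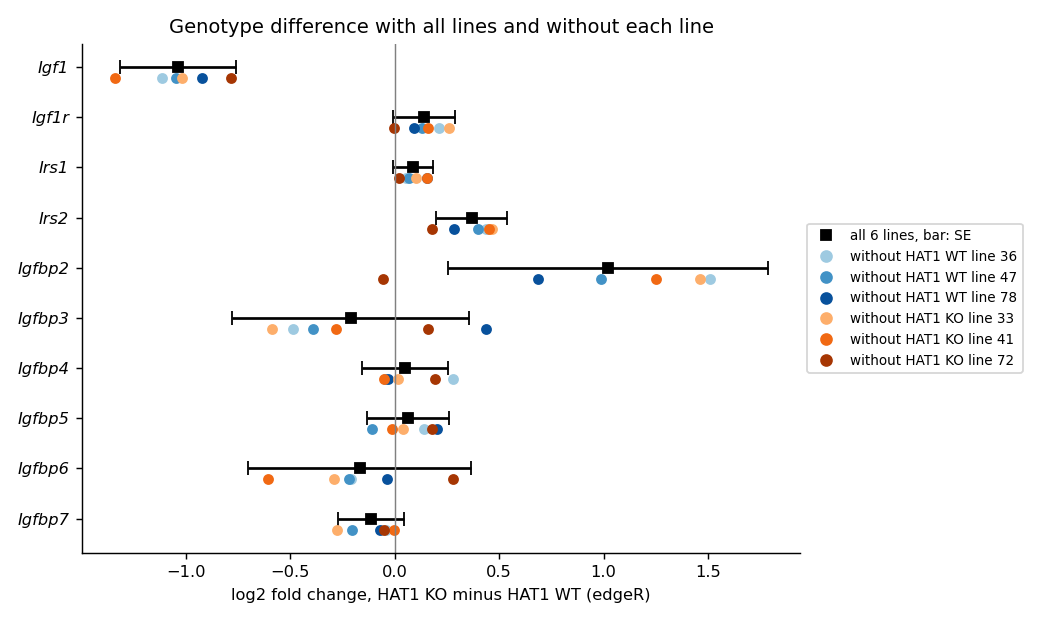
Log2 fold change of HAT1 KO against HAT1 WT for the 10 genes from the edgeR fit, with squares and SE bars for all 6 lines and a coloured point for each fit that left out 1 line. *Igf1* stays between -1.34 and -0.78 in those fits and *Irs2* between 0.18 and 0.47, while *Igfbp2* runs from -0.06 to 1.51.

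The 6 IGF binding proteins were read at high and uneven levels. No member of the family passed the test, and for each of them the values of the genotypes overlapped. *Igfbp2*, *Igfbp3* and *Igfbp6* varied over the lines by 8.79-, 4.61- and 5.12-fold from lowest to highest. Only 0.899%, 1.99% and 1.75% of the 8903 genes had a wider range. *Igfbp4*, *Igfbp5* and *Igfbp7* varied by 1.53-, 1.59- and 1.43-fold, and for them 25.0%, 22.05% and 33.2% of genes had a wider range.

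*Igfbp2* (chromosome 1 from 72824503 to 72852474, plus strand) encodes a binding protein with a preference for IGF2. It stood at 287, 174 and 86.7 CPM in WT lines 36, 47 and 78 and at 107, 241 and 762 CPM in KO lines 33, 41 and 72. KO line 72 was higher than any other line, and without it the KO lines fell inside the WT range. Means were 182 ± 100.3 and 370.0 ± 346 CPM (SD, n = 3 lines each), with a log2 fold change of 1.02 (SE 0.76, adjusted p = 0.588 in edgeR). It was -0.06 without KO line 72 and 0.09 by voom. With the Y-linked level in the model, which sets the KO lines against WT line 78 alone, it was 2.09.

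*Igfbp5*, the neighbour of *Igfbp2*, lies 5457 bases beyond its end on the opposite strand (chromosome 1 from 72857932 to 72874884), so that the genes point at each other. Its protein binds extracellular matrix as well as IGF. Levels were 317, 213 and 339.9 CPM in the WT lines and 314, 337 and 258 CPM in the KO lines, with no line far from the rest. The log2 fold change was 0.06 (SE 0.19, adjusted p = 0.905 in edgeR), and KO line 72, the highest for *Igfbp2*, was the second lowest for *Igfbp5*.

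*Igfbp3* (chromosome 11 from 7206086 to 7213923, minus strand) encodes the main IGF carrier of serum. It was at 68.4, 86.9 and 207 CPM in WT lines 36, 47 and 78 and at 152, 116 and 44.9 CPM in KO lines 33, 41 and 72. The extremes lay in different genotypes, with WT line 78 highest and KO line 72 lowest. Means were 121 ± 75.3 and 104 ± 54.7 CPM (SD, n = 3 lines each). The log2 fold change of -0.21 (SE 0.57, adjusted p = 0.894 in edgeR) became 0.44 without WT line 78 and 0.16 without KO line 72. It was -0.99 with the Y-linked level in the model, where WT line 78, the highest line, alone stands for WT.

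*Igfbp6* (chromosome 15 from 102144362 to 102149511, plus strand) encodes a binding protein that strongly prefers IGF2. It stood at 50.8, 49.4 and 63.0 CPM in the WT lines, and at 56.4, 74.4 and 14.5 CPM in KO lines 33, 41 and 72. Its low value in KO line 72 set that line apart from the other 5, and the log2 fold change of -0.17 (SE 0.53, adjusted p = 0.910 in edgeR) became 0.28 without it.

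*Igfbp4* (chromosome 11 from 99041244 to 99054392, plus strand) encodes an inhibitor of IGF that is cut by the protease PAPP-A. Its levels were 472, 312 and 319 CPM in WT and 399, 435 and 309 CPM in KO, with a log2 fold change of 0.05 (SE 0.21, adjusted p = 0.929 in edgeR). *Igfbp7* (chromosome 5 from 77349240 to 77408041, minus strand) encodes a relative of the family with low affinity for IGF. It was at 347, 274 and 334 CPM in WT and at 358, 251 and 274 CPM in KO, with a log2 fold change of -0.11 (SE 0.16, adjusted p = 0.791 in edgeR). Exons of *Polr2b* on the other strand cover 7.03% of its exon bases. Values of these genes ran through each other in the genotypes, and neither held a line that stood alone.

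KO line 72 was the highest or the lowest line for 8 of the 10 members. It was highest for *Igf1r*, *Igfbp2*, *Irs1* and *Irs2* and lowest for *Igf1*, *Igfbp3*, *Igfbp4* and *Igfbp6*. Over all tested genes it was an extreme for 51.5%, against 19.3% to 40.4% for the other lines. WT line 78 was an extreme for 5 members, among them the highest level of *Igf1*, *Igfbp3* and *Igfbp5* and the lowest of *Igfbp2* and *Irs2*.

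To compare levels between genes, TMM-scaled CPM was divided by the kilobases of annotated exon. On this scale *Igfbp7* led in the WT lines at 263 ± 32.3, and none of its WT values met those of *Igfbp2*, at 98.7 ± 54.3. *Igfbp2* overlapped *Igfbp4* (83.3 ± 20.5), whose WT values were all above those of *Igfbp6*. Next came *Igfbp6* (48.9 ± 6.70), *Igfbp5* (48.3 ± 11.2), *Igfbp3* (38.6 ± 24.1) and *Igf1* (24.9 ± 3.21, all SD, n = 3 lines), each overlapping the next of these. *Igf1r* (14.9 ± 1.27) and *Irs1* (13.4 ± 0.963) overlapped each other below them, and *Irs2* (5.69 ± 0.646) was last, apart from *Irs1*. Every WT value of *Igf1* lay above every WT value of *Igf1r*.

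In HAT1 KO the 3 highest means were those of *Igfbp7* (243 ± 46.6), *Igfbp2* (200.3 ± 187) and *Igfbp4* (86.2 ± 14.7), with *Igfbp2* overlapping both and *Igfbp4* above the next gene, *Igfbp5* (50.5 ± 6.73, SD, n = 3 lines). All neighbours further down overlapped. The place of *Igfbp2* rested on KO line 72, without which its mean was 94.1 and level with *Igfbp4* (94.4), while without KO line 33, or with the longest transcript as length, *Igfbp2* came above *Igfbp7*. In WT, too, *Igfbp4* (71.4) and *Igfbp2* (70.5) were level without WT line 36. *Igf1* was 7th in WT and 9th in KO, at 12.2 ± 4.58, overlapping *Irs1* and close to *Igf1r* (16.4 ± 3.09). *Irs1* was at 14.2 ± 1.42. Without KO line 72, or by the longest transcript, *Igf1* was 8th in KO, with a mean of 14.4 without that line beside 13.4 for *Irs1*. By line, *Igf1* stood at 11.9, 16.9 and 7.70 per kilobase in KO lines 33, 41 and 72, and *Igf1r* at 13.5, 15.9 and 19.7. Only in KO line 41 was the ligand transcript above that of its receptor, while it was above in each WT line.

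**Figure D4:**
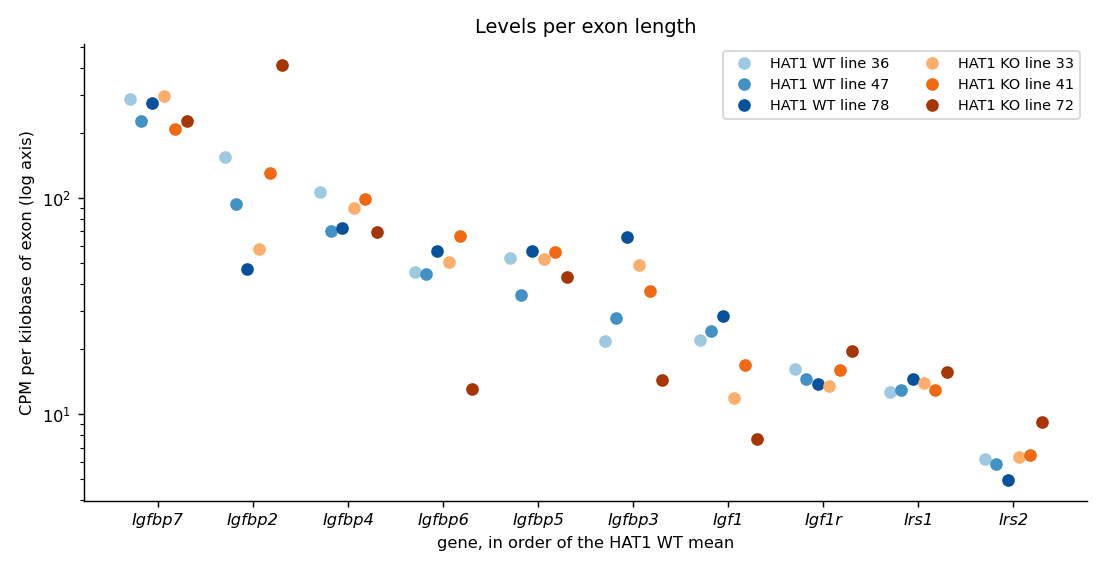
TMM-scaled CPM per kilobase of exon (log axis) for the 10 genes, ordered by the HAT1 WT mean, with 1 point per line. Binding protein transcripts lie above those of the ligand, receptor and substrates in most lines, with *Igfbp7* at 208 to 296 over the 6 lines and *Irs2* at 4.96 to 9.23.

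The summed level of the 6 binding proteins per kilobase was 669.8, 499 and 575 in WT lines 36, 47 and 78 and 596, 597 and 779.6 in KO lines 33, 41 and 72. The sums overlapped, and KO line 72 had the highest. *Igfbp7* made up 42.9%, 45.4% and 48.0% of the sum in the WT lines and 49.7%, 34.8% and 29.1% in KO lines 33, 41 and 72. *Igfbp2* contributed 23.2%, 18.8% and 8.17% in the WT lines. In KO lines 33, 41 and 72 its part was 9.69%, 21.9% and 52.9%, so that it led the sum only in KO line 72. Set against *Igf1*, the binding proteins were at 30.4, 20.5 and 20.2 times its level in WT lines 36, 47 and 78 and at 50.1, 35.4 and 101 times in KO lines 33, 41 and 72. The KO ratios lay above the WT ratios, as the *Igf1* levels did below, and no test was made of this ratio.

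**Figure D5:**
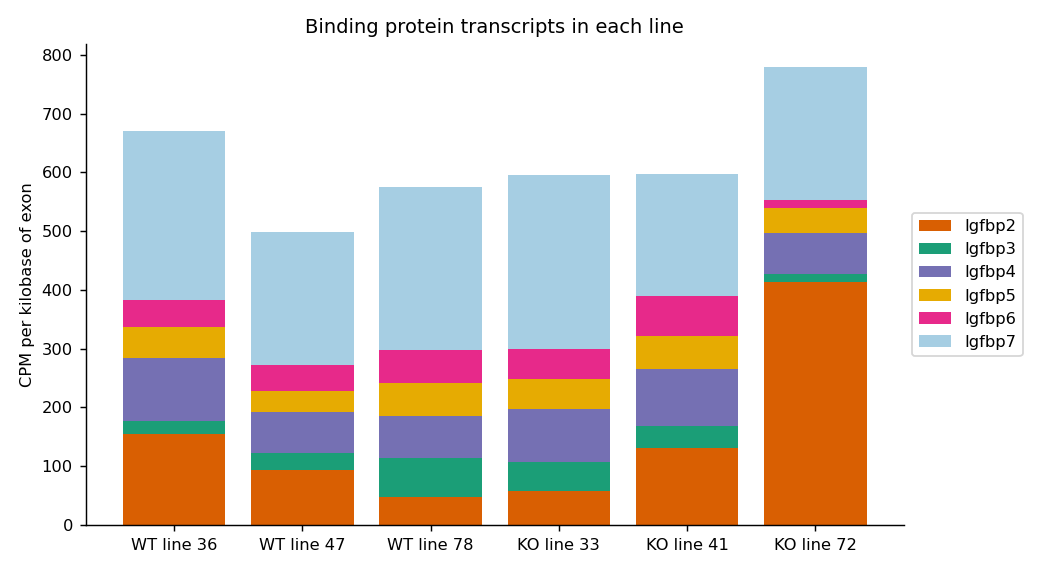
Stacked levels of *Igfbp2* to *Igfbp7* in TMM-scaled CPM per kilobase of exon, with 1 bar per line. *Igfbp7* is the largest part in each line but KO line 72, where *Igfbp2* makes up 52.9%.

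Other genes of the pathway were read from lists of ligands and receptors, of factors that cut binding proteins, of growth hormone signalling, of the PI3 kinase to mTOR route, of the RAS to MAP kinase route with its adaptors, of *Igf2* mRNA-binding proteins and of the CCN family. Of 77 listed genes 69 were tested, 34 of them lower and 35 higher in KO, with a median log2 fold change of 0.01. In the edgeR test 0 had an adjusted p-value under 0.05, while 8 (11.6%, beside 14.6% of all tested genes) had an unadjusted p-value under 0.05. DESeq2 called *Stc2* and *Grb2*, and voom called *Stc2*. For 11 of the 69 the values of WT and KO lines stood apart (15.9%, beside 22% of all tested genes).

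Those 8 genes were *Stc2*, *Hras* and *Igf2bp1*, higher in KO, and *Grb2*, *Pik3cd*, *Sos2*, *Pik3ca* and *Igf2r*, lower in KO. *Stc2* encodes stanniocalcin 2, an inhibitor of the proteases that cut IGF binding proteins. It was at 8.43, 9.02 and 9.47 CPM in WT lines 36, 47 and 78 and at 12.4, 12.3 and 12.5 CPM in KO lines 33, 41 and 72, with hardly any spread among the KO lines. Its log2 fold change was 0.46 (SE 0.09, adjusted p = 0.104 in edgeR), the smallest adjusted p-value of the pathway genes.

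*Grb2*, the adaptor that links activated receptors to RAS, was at 108 to 113 CPM in WT and 87.2 to 94.0 CPM in KO, a log2 fold change of -0.29 (SE 0.06, adjusted p = 0.113 in edgeR). *Sos2*, an exchange factor for RAS, and *Hras*, a RAS protein itself, had log2 fold changes of -0.23 and 0.34. *Pik3cd*, a catalytic subunit of PI3 kinase best known from leukocytes, was at 30.4 to 31.5 CPM in WT and at 26.4, 18.4 and 16.1 CPM in KO lines 33, 41 and 72. It had a log2 fold change of -0.60 (SE 0.18, adjusted p = 0.232 in edgeR) and was the only pathway gene past 1.5-fold with an unadjusted p-value under 0.05 (1 of 69, beside 6.11% of all tested genes, of which 4.62% lower and 1.5% higher). *Igf1* met the same criteria among the members (1 of 10). *Pik3ca*, another catalytic subunit, had a log2 fold change of -0.18, and *Igf2bp1*, an mRNA-binding protein, of 0.29.

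*Igf2r*, the receptor that clears IGF2 and carries lysosomal enzymes, was at 874 to 1056 CPM in WT and 640.0 to 855 CPM in KO, with a log2 fold change of -0.34 (SE 0.13, adjusted p = 0.321 in edgeR). *Igf2*, the second ligand, and *Pappa*, the gene of PAPP-A, were singled out after their values were seen. *Igf2* was at 104, 119.8 and 294 CPM in WT lines 36, 47 and 78 and at 779, 178 and 58.6 CPM in KO lines 33, 41 and 72. It spanned 13.3-fold within the KO lines alone, had its highest and lowest values there, and gave a log2 fold change of 0.97 (SE 0.93, adjusted p = 0.678 in edgeR). *Pappa* was at 751 to 909 CPM in WT and 629.8 to 806 CPM in KO, with overlapping genotypes (log2 fold change -0.17, SE 0.13, adjusted p = 0.591 in edgeR).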

How the data were processed

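The authors deposited raw read counts per gene for 6 libraries of total RNA, with no normalization. Per the labels, edgeR and the mm10 build were named in the submitters' processing notes. The aligner, counter, annotation and use of strand are not given in the sources used here. The deposited table also held the authors' own comparison (log2 fold change and log2 mean CPM, an F score, p-values and q-values), which was not used. No 2 libraries were identical, and 0 columns of sample values were left unmapped.

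Counts were tested in edgeR 4.0.16 (R 4.3.3) with filterByExpr, TMM scaling and a quasi-likelihood fit of genotype over 14773 genes, two-sided, with Benjamini-Hochberg adjustment and a threshold of 0.05. CPM is TMM-scaled. The SE is the log2 fold change divided by the root of F. Exact permutation tests used log2 CPM with a prior count of 2. Positions, exon lengths and overlaps came from GENCODE M21 on GRCm38 and promoter windows from RefSeq. The procedure was tested on simulated data. Alternatives were DESeq2 1.42.0, voom in limma 3.58.1, other scalings and filters, lane or Y-linked level (split at 1000 counts) in the model, and each line left out. Only WT lines 36 and 47 passed that split, so the Y-linked model compared the KO lines with WT line 78 alone. At these depths the spread between lines, not counting error, sets the precision.

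Named were the 10 members, pathway genes with an adjusted p-value under 0.05 or with an unadjusted p-value under 0.05 and a 1.5-fold change, filled up to 8 genes by p-value, and the 5 genes most like *Igf1*. Members and lists were chosen with earlier results of these data known.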

Additional observations from a re-analysis of the deposited data

How the results depend on the processing

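Of 140 values of the members under alternatives, 125 kept direction and side of the threshold. *Igf1* passed in the DESeq2 Wald test (log2 fold change -1.03, adjusted p 0.00599), so that 1 member was called there. Its other adjusted p-values ran from 0.123 to 0.659, and its log2 fold change from -1.34 to -0.78 without 1 line. DESeq2 called 2 pathway genes and voom 1. Reversed members had adjusted p-values of at least 0.414: voom gave 0.35 for *Igfbp3* and 0.0597 for *Igfbp6*, and the Y-linked term gave -0.17 for *Igfbp5* and -0.0272 for *Irs1*. Without 1 line the log2 fold changes ran from -0.0015 to 0.26 for *Igf1r*, -0.0561 to 1.51 for *Igfbp2*, -0.59 to 0.44 for *Igfbp3*, -0.0492 to 0.28 for *Igfbp4*, -0.11 to 0.20 for *Igfbp5* and -0.61 to 0.28 for *Igfbp6*. Among these fits *Igf1r*, *Igfbp2* and *Igfbp6* reversed only without KO line 72, and *Igfbp3* without it (0.16) or WT line 78. *Igfbp4* was -0.0456 without WT line 47, -0.0492 without KO line 41 and -0.032 without WT line 78, and *Igfbp5* was -0.11 without WT line 47 and -0.0142 without KO line 41. The widest moves among the other alternatives were 2.09 for *Igfbp2* and -0.99 for *Igfbp3* with the Y-linked term, and 0.0854 for *Igfbp2* by voom. The Y-linked term left WT line 78 alone to stand for WT. With the longest transcript as length, 7 members kept their rank in WT and 6 in KO, and without 1 line (chosen after seeing the data) 6 to 10 kept it in WT and 4 to 10 in KO, fewest without KO line 72. Library totals, also for the overlap of genotypes (an alternative chosen after seeing the data), changed no rank and no overlap. Over all genes the median log2 fold change was between -0.00293 and 0.0252 in every alternative. The cause was not tested. No paired analysis was possible because the genotypes share no line numbers. The size of these spreads, with 3 lines a genotype, limits what could be told apart.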
